A study of Mus musculus with 8 samples.

Results

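The comparison described here added an antibody against PD-1 to the BET inhibitor JQ1 in mouse lung tumours. Its members were the 4 libraries labelled as treated with JQ1, 2 of them without and 2 with the antibody, out of 8 libraries in the series. All 8 came from nodules of lung tumours that arise in engineered mice, which serve as a model of non-small cell lung cancer, on a mixed strain background. The groups were vehicle, JQ1, anti-PD1 and anti-PD1-JQ1 (called the combination), with 2 libraries each. All groups are labelled with the same model; JQ1 was given to both groups compared, and no group without tumours was included. The labels name neither the alleles and promoter behind the model nor the doses, schedule, sampling time or ages. The labels also do not say whether the 2 libraries of a group came from separate animals or from pooled nodules, so the p-values measure the spread between these libraries, which may be technical. Of 52459 gene symbols in the count table, 14085 passed the low-count filter and were tested.

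PD-1 is an inhibitory receptor on activated T cells; its ligands, PD-L1 and PD-L2, are carried by tumour and myeloid cells, and antibodies that block the receptor release T cells from that brake. JQ1 occupies the acetyl-lysine pockets of the BET proteins and displaces them from acetylated chromatin. BET proteins recruit the elongation kinase P-TEFb to promoters, and MYC is the classic gene that depends on them in many tumours. Lung adenocarcinomas of such mouse models derive mainly from alveolar type 2 cells, and the ERK kinases carry growth signals in them.

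Promoters are printed for 4 genes on which the results turn, to show which of 2 clock motifs they hold: Per3 and Id2, which passed the test, the clock output factor Tef and the glucocorticoid-responsive factor Klf15. Each sequence is the 250 bases before a RefSeq gene start on GRCm38.p6, written 5′ to 3′ on the gene's strand. Capitals mark the E-box CACGTG, the site of CLOCK and BMAL1, and the D-box TTATGTAA, the site of the PAR bZIP factors to which TEF belongs, searched on both strands.
Per3, chr4:151044666-151044915, minus strand: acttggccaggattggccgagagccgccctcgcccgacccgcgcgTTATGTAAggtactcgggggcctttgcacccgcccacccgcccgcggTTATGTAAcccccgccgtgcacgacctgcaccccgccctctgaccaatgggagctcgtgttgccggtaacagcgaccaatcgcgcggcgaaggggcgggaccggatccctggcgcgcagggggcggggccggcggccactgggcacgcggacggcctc
Tef, chr15:81802423-81802672, plus strand: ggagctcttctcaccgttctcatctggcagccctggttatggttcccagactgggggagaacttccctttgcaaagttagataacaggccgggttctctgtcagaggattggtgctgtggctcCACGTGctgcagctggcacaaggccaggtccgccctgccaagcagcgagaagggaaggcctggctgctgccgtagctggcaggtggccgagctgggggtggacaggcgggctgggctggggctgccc
Klf15, chr6:90462326-90462575, plus strand: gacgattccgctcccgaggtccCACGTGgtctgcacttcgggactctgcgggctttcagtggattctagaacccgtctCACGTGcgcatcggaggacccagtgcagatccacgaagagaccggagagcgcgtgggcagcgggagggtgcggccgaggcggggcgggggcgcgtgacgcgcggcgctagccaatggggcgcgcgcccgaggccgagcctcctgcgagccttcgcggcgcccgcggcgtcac
Id2, chr12:25096093-25096342, minus strand: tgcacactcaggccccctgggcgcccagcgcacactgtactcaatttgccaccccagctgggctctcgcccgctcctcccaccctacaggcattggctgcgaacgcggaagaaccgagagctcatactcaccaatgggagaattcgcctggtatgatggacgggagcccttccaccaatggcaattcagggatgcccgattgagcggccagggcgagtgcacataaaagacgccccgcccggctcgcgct

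The Per3 window held 2 D-boxes, 205 and 158 bases before the start. The printed Tef window held 1 E-box, 127 bases before the start, and the Klf15 window held 2, at 228 and 172 bases. Another RefSeq start of Tef, whose window is not printed, had an E-box 138 bases before it. The Id2 window held neither motif. Fmo2, a ranked gene described below, was searched as well, and its windows, which are not printed, held neither motif. Prdx6, which also passed the test, had no window in the promoter set and could not be searched. Over all RefSeq windows of this length, 6.86% of 27025 genes had an E-box and 0.977% had a D-box. Of the 19 clock genes described below, 16 were matched to a window; 5 of these held an E-box (Bhlhe41, Ciart, Cry1, Per1 and Tef) and 1 held a D-box (Per3). Of the 18 glucocorticoid-responsive genes described below, 15 were matched. Of these, 5 held an E-box (Dusp1, Fkbp5, Klf15, Per1 and Sgk1) and 0 held a D-box, so the E-box was not particular to the clock list. The glucocorticoid response element was searched for as well. It was found in 1 of these 15 genes (Sgk1), 0 of the 16 clock genes and 0.0111% of all genes. These matches describe letters in a window and say nothing of what binds there.

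The libraries differed in depth and composition, and composition moved with the groups. The JQ1 libraries held 8977259 and 9789137 counts and the combination libraries 2719816 and 9034331, so combination library 1 was the shallowest. Ribosomal RNA was taken as genes annotated with that biotype plus symbols listed by name. It took 32.4% ± 5.14 (SD, n = 2) of the counts in the JQ1 group and 50.3% ± 4.80 (SD, n = 2) in the combination group. The share was 23.6% ± 1.40 (SD, n = 2) with vehicle and 24.6% ± 0.487 (SD, n = 2) with the antibody alone. Most of it was 1 symbol listed by name, the predicted gene Gm42418. This symbol took 29.8% and 22.3% of all counts in the JQ1 libraries and 40.6% and 47.3% in the combination libraries. The ribosomal RNA shares of the JQ1 and combination groups did not overlap, so this share and the treatment cannot be told apart. Outside ribosomal RNA, combination library 1 kept 1444554 counts and combination library 2 kept 4184929. Each of the JQ1 and combination groups had 1 female and 1 male library by Xist and Y-linked transcripts, which gave a female and a male pair within which values are also compared below. Levels are given in CPM, the counts of a gene scaled to a common size by library total and TMM factor. The library protocol enriched coding transcripts with capture probes, so levels are compared between libraries for 1 gene and not between genes. In bulk tumour RNA, fewer cells of a type and less RNA per cell cannot be told apart.

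Between JQ1 and the combination 3 genes passed the threshold: Per3 and Prdx6 rose and Id2 fell (edgeR quasi-likelihood test, Benjamini-Hochberg adjusted p under 0.05, 3 of 14085 genes, 0.0213%; higher 0.0142%, lower 0.0071%). Per3 encodes a repressor of the circadian clock. It stood at 16.2 and 9.24 CPM in the JQ1 libraries and at 79.5 and 93.9 CPM in the combination libraries, with 14.5 to 16.0 CPM in the vehicle libraries and 19.7 and 21.2 CPM in the anti-PD1 libraries. Both combination libraries thus lay above all 6 others. Its log2 fold change was 2.78 ± 0.33 (SE; edgeR adjusted p = 0.0431), a 6.85-fold higher level, and was 2.27 in the female pair and 3.28 in the male pair.

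Prdx6 encodes peroxiredoxin 6, an antioxidant enzyme of lung epithelium that also takes part in surfactant phospholipid turnover. Its level was 108 and 86.9 CPM with JQ1 and 498 and 766 CPM with the combination, beside 102 and 104 CPM with vehicle and 105 and 152 CPM with the antibody alone. The 6 libraries outside the combination group spanned a narrow range, and both combination libraries lay above it. The log2 fold change was 2.70 ± 0.31 (SE; edgeR adjusted p = 0.0431). Prdx6 lies at chr1:161240112-161251219 on the minus strand of GRCm38.

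Id2 encodes a dominant-negative helix-loop-helix protein that blocks differentiation factors and is a target of BMP signalling. It stood at 238 and 265 CPM with JQ1 and at 67.3 and 49.4 CPM with the combination. The vehicle libraries were higher, at 484 and 393 CPM, and the anti-PD1 libraries, at 215 and 234 CPM, lay next to the JQ1 libraries. The log2 fold change between the combination and JQ1 was -2.12 ± 0.27 (SE; edgeR adjusted p = 0.0477).

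The 3 calls sat close to the threshold and depended on the libraries used to estimate the spread. Leaving out JQ1 library 1 gave 20 calls and leaving out combination library 1 gave 114, both including all 3 genes. Leaving out JQ1 library 2 gave 2 other calls (Gkn1 and Mcm2), and leaving out combination library 2 gave 1 other call, a predicted gene. Leaving out either vehicle or either anti-PD1 library gave 0 calls. The direction of the 3 genes held in every one of these fits, with log2 fold changes of 2.42 to 3.22 for Per3, 2.33 to 2.98 for Prdx6 and -2.35 to -1.93 for Id2. Without ribosomal RNA genes, Per3 and Prdx6 kept their calls and Id2 lost its call (edgeR adjusted p = 0.0542), and a sex term or a fit of only the 4 libraries compared gave 0 calls. DESeq2 on the same genes called 409 (2.9%), with 212 higher (1.51%) and 197 lower (1.4%), the 3 genes among them.

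In edgeR 1987 genes had an unadjusted p under 0.05, where uniform p-values would give 704. The antibody alone against vehicle gave 278 in the same fit, so 704 is a rough guide only. An excess over chance was not tested. The 1987 were 959 higher (6.81% of all tested genes) and 1028 lower (7.3%) in the combination, and 28 genes had an adjusted p under 0.1. In 2780 genes (19.7%) both combination libraries lay above both JQ1 libraries, and in 3006 (21.3%) both lay below. Both combination libraries lay above all 6 other libraries in 1766 genes (12.5%) and below all 6 in 1798 (12.8%). Over all tested genes the median log2 fold change was -0.00590, with 6990 positive and 7093 negative.

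The antibody effect in JQ1-treated tumours was then compared with the antibody effect in the absence of JQ1, using the 4 libraries of the vehicle and anti-PD1 groups. Both vehicle libraries were male and the anti-PD1 libraries were 1 male and 1 female, so this side, and with it the interaction, was not balanced by sex. The interaction term called 0 of 14085 genes in edgeR (0%), with 881 at an unadjusted p under 0.05 and a smallest adjusted p of 0.745. DESeq2 called 22 and limma voom 0. The antibody alone against vehicle called 0 genes in edgeR (0%), with 278 at an unadjusted p under 0.05. Per3 had a log2 difference of 0.42 for the antibody alone and an interaction of 2.35 ± 0.45 (SE; edgeR adjusted p = 0.745). Prdx6 had 0.32 for the antibody alone and an interaction of 2.38 ± 0.42 (SE; edgeR adjusted p = 0.745). For Id2 the antibody alone gave -0.96 and the interaction was -1.15 ± 0.37 (SE; edgeR adjusted p = 0.745).

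Genes that followed the called ones in rank are given as values, since none passed the threshold. Ranked genes had to have both combination libraries above, or both below, both JQ1 libraries. Part of their separation from the other libraries follows from that rule. Of the 2780 genes above both JQ1 libraries, 1766 were also above all 6 others. Of the 3006 below, 1798 were also below all 6. On the higher side, Fmo2, a flavin monooxygenase of lung, stood at 28.4 and 45.5 CPM with JQ1 and 215 and 159 CPM with the combination (edgeR adjusted p = 0.0588). Tef stood at 39.1 and 25.9 CPM and then 148 and 128 CPM (edgeR adjusted p = 0.0660). Both genes were above all 6 other libraries in both combination libraries, as were all 10 of the ranked genes on the higher side. The others of these were Ccdc141 (1.96), Pdlim2 (1.58), Klf15 (4.58), Adgrf5 (1.44), Perp (2.28) and Slc16a7 (2.88), with log2 fold changes in brackets and edgeR adjusted p values of 0.0901 to 0.104. Adgrf5 is an adhesion receptor that holds surfactant levels down in alveolar type 2 cells, Perp encodes a desmosomal protein and p53 target, and Slc16a7 a monocarboxylate transporter.

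On the lower side, after Id2, Adamts9, a secreted matrix protease, stood at 77.5 and 105 CPM with JQ1 and 21.5 and 23.9 CPM with the combination. The tubulin gene Tuba1a stood at 145 and 132 CPM and then 40.8 and 27.9 CPM, and Tubb5 at 874 and 1096 CPM and then 174 and 288 CPM. Tubulin genes have close paralogs, so reads could be split between them. Mcm2, a subunit of the replicative helicase, stood at 42.6 and 17.7 CPM and then 3.79 and 4.61 CPM. Hells, a chromatin remodeller of dividing cells, stood at 29.2 and 14.8 CPM and then 3.79 and 3.13 CPM. Prmt1, an arginine methyltransferase, Antxr1, a collagen receptor, and Ctnnd2, a delta catenin, had log2 fold changes of -1.49, -2.15 and -2.06. Moxd1, a monooxygenase-like gene, had 50 and 94 counts with JQ1 and 0 and 2 counts with the combination, so no fold is given. All 10 of these genes were below all 6 other libraries in both combination libraries, with edgeR adjusted p values of 0.0477 (Id2) to 0.0932. Here too the ranking rule fixed part of the separation.

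**Figure D1:**
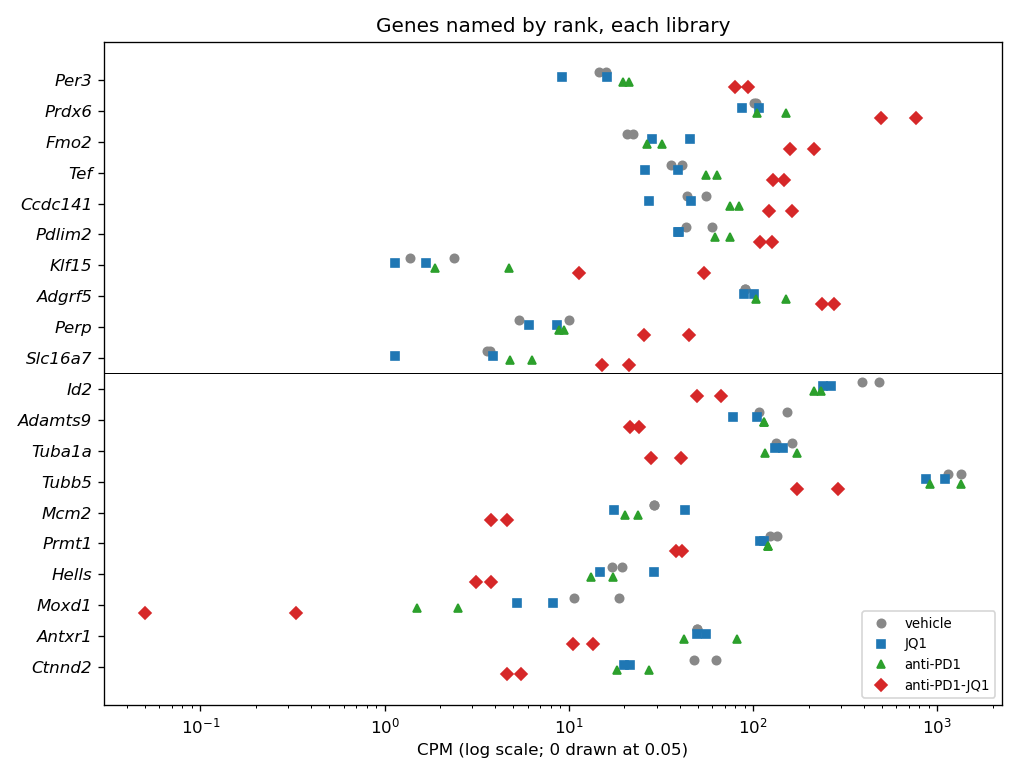
Level of each of the 20 ranked genes in every library, in CPM on a log axis with 0 drawn at 0.05; circles are vehicle, squares JQ1, triangles anti-PD1 and diamonds anti-PD1-JQ1, with 1 point per library. In the upper 10 genes both diamonds lie to the right of all other points, and in the lower 10 both lie to the left. Genes were ranked only if both diamonds lay to the same side of both squares.

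The genes were next read by function, in 39 lists. Per3, in the clock list, was the one list member called by edgeR; no other member of any list passed. Lists are therefore described by how many tested members were positive, how many had combination libraries both above or both below the JQ1 libraries, and the median log2 fold change, to be read against 19.7% above, 21.3% below and a median of -0.00590 over all tested genes.

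**Figure D2:**
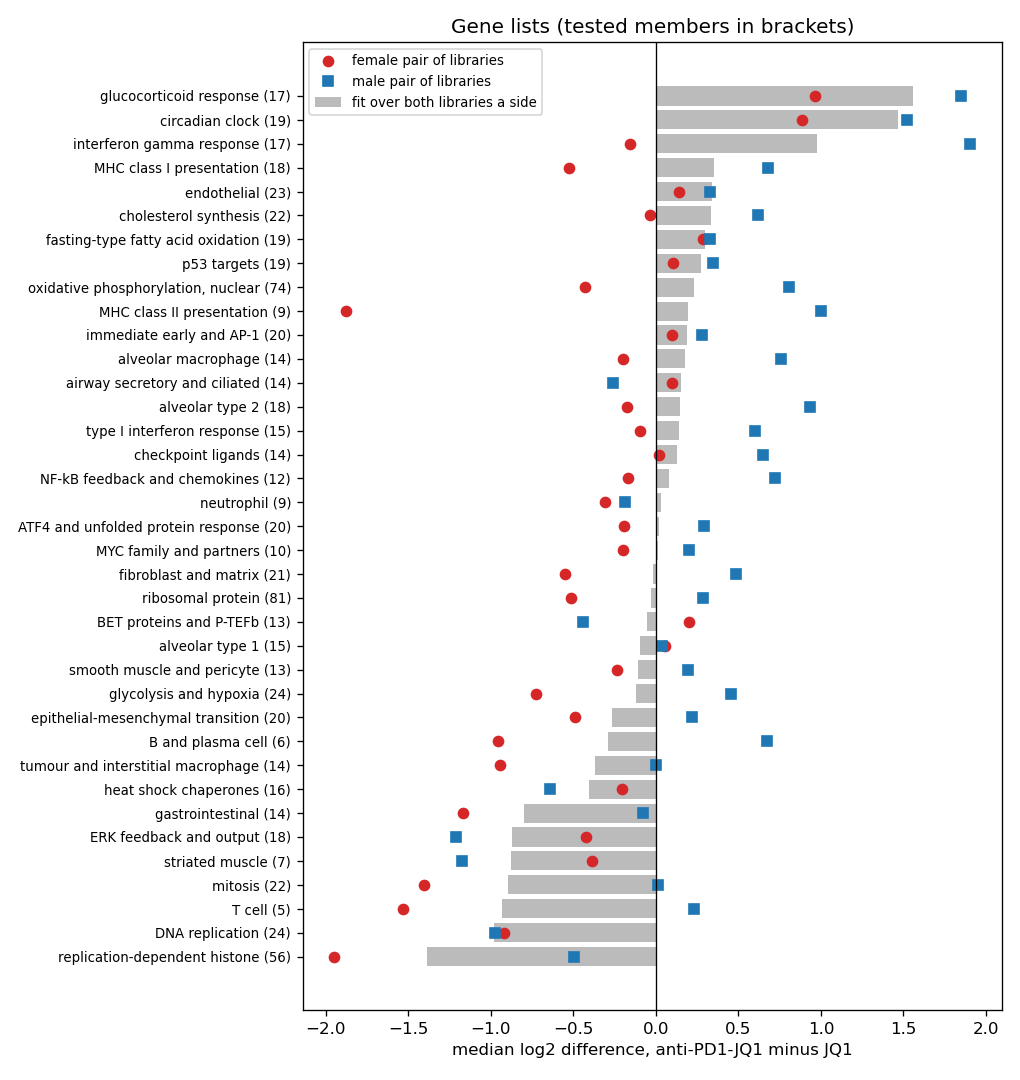
Median log2 difference between the combination and JQ1 for each list with at least 5 tested members, given in brackets; bars are medians from the fit over both libraries a side, circles the female pair and squares the male pair. The glucocorticoid and clock lists lie at 1.56 and 1.47 and the histone list at -1.39, each on 1 side of 0 in both pairs, while the interferon gamma list has its circle at -0.16 and its square at 1.90.

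The circadian clock is a transcriptional loop in which CLOCK and BMAL1 (Arntl) drive the Per, Cry and Nr1d genes, whose products repress the drive, with DBP, TEF and HLF as output factors. Of 19 clock genes, all tested, 17 were positive, 12 had both combination libraries above both JQ1 libraries and 0 had both below, and the median log2 fold change was 1.47 (0.89 in the female pair, 1.52 in the male pair). Without combination library 2 the median was 0.66, and it was 1.26 to 1.48 without any 1 of the other libraries. At an unadjusted p under 0.05, 9 were higher and 0 lower. DESeq2 called 7, all higher. The labels give no sampling time, and the part of the time of day was not tested.

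Among the repressors, Per2 stood at 21.0 and 22.9 CPM with JQ1 and 65.2 and 62.0 CPM with the combination, a log2 difference of 1.53 ± 0.31 (SE; edgeR adjusted p = 0.122). The pairs were tight and far apart, and the anti-PD1 libraries at 27.9 and 25.3 CPM lay close to JQ1. Per1, which also responds to glucocorticoids, was uneven: 47.2 and 68.2 CPM with JQ1, 78.7 and 280 CPM with the combination. Nr1d2, a nuclear receptor that represses Arntl, stood at 55.6 and 27.8 CPM and then 125 and 106 CPM (log2 1.47 ± 0.34, SE; edgeR adjusted p = 0.127). Ciart, a repressor of CLOCK and BMAL1, stood at 0.839 and 1.22 CPM and then 2.95 and 16.3 CPM, so combination library 2 set most of its log2 difference of 3.27. The activator genes Arntl and Npas2 were the 2 negative members, at -0.03 ± 0.40 (SE) and -0.46 ± 0.56 (SE), and their combination libraries spanned or overlapped the JQ1 values. With combination library 1 left out, both turned positive (0.42 and 0.15), and Arntl was 0.04 without JQ1 library 1.

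**Figure D3:**
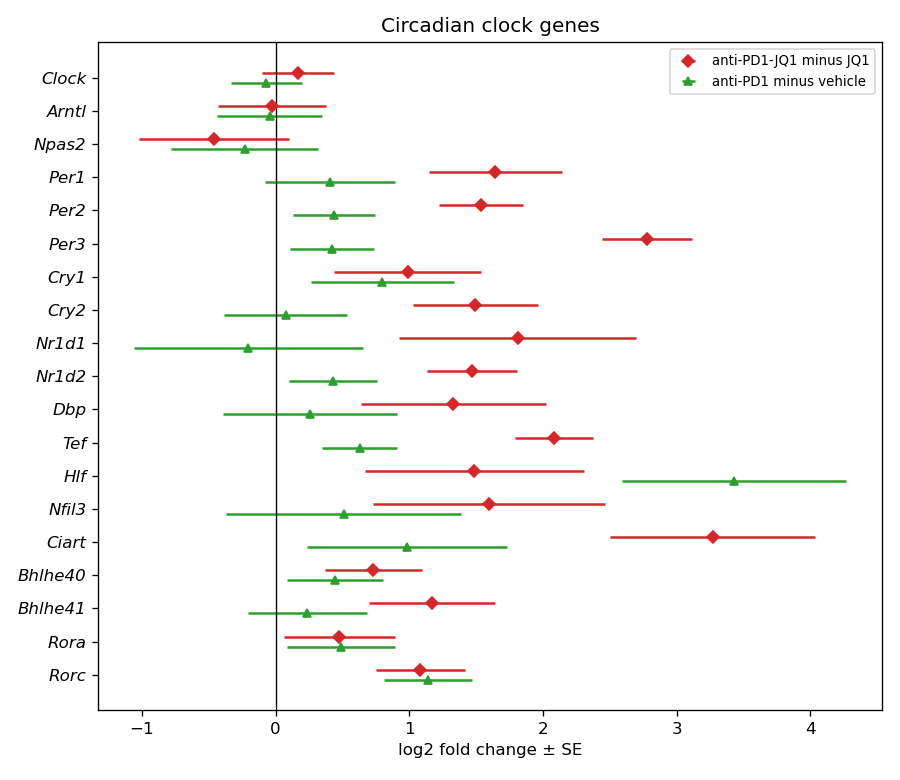
Log2 fold change with its standard error for the 19 clock genes; diamonds are the combination minus JQ1 and triangles anti-PD1 minus vehicle. The diamonds run from -0.46 (Npas2) to 3.27 (Ciart) and 17 of them are positive, and Per3 has 2.78 against 0.42 for the antibody alone.

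Glucocorticoid-responsive genes, a list that shares Per1 with the clock, were also mostly higher. Glucocorticoid hormone, through its nuclear receptor, directly induces genes such as Fkbp5, Klf9, Klf15 and the metallothioneins in lung. Of 18 listed genes 17 were tested, 16 were positive, 10 lay above both JQ1 libraries and 0 below, and the median log2 fold change was 1.56 (0.97 in the female pair, 1.85 in the male pair). The median was 0.53 without combination library 2 and 1.93 without JQ1 library 2. DESeq2 called 8, all higher. Fkbp5, a chaperone of the receptor, stood at 12.8 and 19.4 CPM with JQ1 and 34.9 and 73.8 CPM with the combination. Klf9 stood at 29.9 and 41.4 CPM and then 66.5 and 122 CPM, and Mt2, a metallothionein, at 8.5 and 9.41 CPM and then 19.8 and 80.6 CPM. In all 3, combination library 2 was the higher of the pair. So it was in Klf15, with 1.68 and 1.13 CPM in the JQ1 libraries and 11.4 and 54.4 CPM in the combination libraries.

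Most genes of cell division had lower levels in the combination, none past the threshold. Replication-dependent histone genes, which cells transcribe in S phase to package new DNA, had 56 of 67 members tested, 50 negative, 41 with both combination libraries below both JQ1 libraries and 0 above, and a median log2 fold change of -1.39 (-1.95 in the female pair, -0.50 in the male pair). It was -0.78 without JQ1 library 1 and -2.07 without combination library 2. At an unadjusted p under 0.05, 31 were lower and 1 higher, and DESeq2 called 18, all lower. Summed over the 67 genes, histone transcripts stood at 1272 and 864 CPM with JQ1 and 475 and 726 CPM with the combination, so the sums did not overlap but the male pair was close. Histone genes are near-identical copies and their transcripts mostly lack poly(A) tails, so single members are uncertain.

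Hist1h2bm stood at 43.2 and 22.8 CPM with JQ1 and 6.31 and 6.43 CPM with the combination, and Hist1h2bl at 30.0 and 18.9 CPM and then 4.21 and 5.27 CPM. Both encode H2B. Hist2h2ac, an H2A gene, stood at 145 and 85.1 CPM and then 24.8 and 29.5 CPM. Their edgeR adjusted p values were 0.0932, 0.0933 and 0.122. Hist1h2ae had 34 and 29 counts with JQ1 and 0 and 1 with the combination, and Hist1h2ag had 46 and 39 counts and then 0 and 2. In all 5 genes, named for the smallest p in the list, both combination libraries lay below both JQ1 libraries.

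DNA replication genes had 24 of 25 members tested, 22 negative, 15 below both JQ1 libraries and 1 above, with a median of -0.98 (-0.92 in the female pair, -0.97 in the male pair). The median was -1.53 without combination library 1 and -0.71 without JQ1 library 1. DESeq2 called 4, all lower. Besides Mcm2, the helicase genes Mcm4 (80.5 and 36.8 CPM, then 21.5 and 14.8 CPM) and Mcm3 (25.4 and 8.11 CPM, then 3.37 and 3.46 CPM) were lower in both combination libraries. Rrm2, the ribonucleotide reductase subunit that supplies deoxynucleotides, stood at 15.5 and 3.84 CPM and then 0 and 1.32 CPM. Prim1, the primase, stood at 2.83 and 1.74 CPM and then 0.421 and 0.165 CPM, which are 1 count in each combination library.

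Mitosis genes had 22 of 25 members tested, 19 negative, 10 below both JQ1 libraries and 0 above, with a median of -0.89. The pairs differed here: the median was -1.40 in the female pair and 0.01 in the male pair. It was -0.49 without combination library 1, -0.51 without JQ1 library 1 and -1.71 without combination library 2. Kif23, a cytokinesis kinesin, stood at 19.9 and 23.7 CPM and then 6.73 and 4.94 CPM, and was the 1 member called by DESeq2. Top2a, the topoisomerase of dividing cells, stood at 40.2 and 15.6 CPM and then 2.95 and 12.7 CPM, Plk1, a mitotic kinase, at 1.47 and 1.31 CPM and then 0.421 and 0.330 CPM, and Tpx2, a spindle factor, at 2.73 and 1.48 CPM and then 0.421 and 0.824 CPM.

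**Figure D4:**
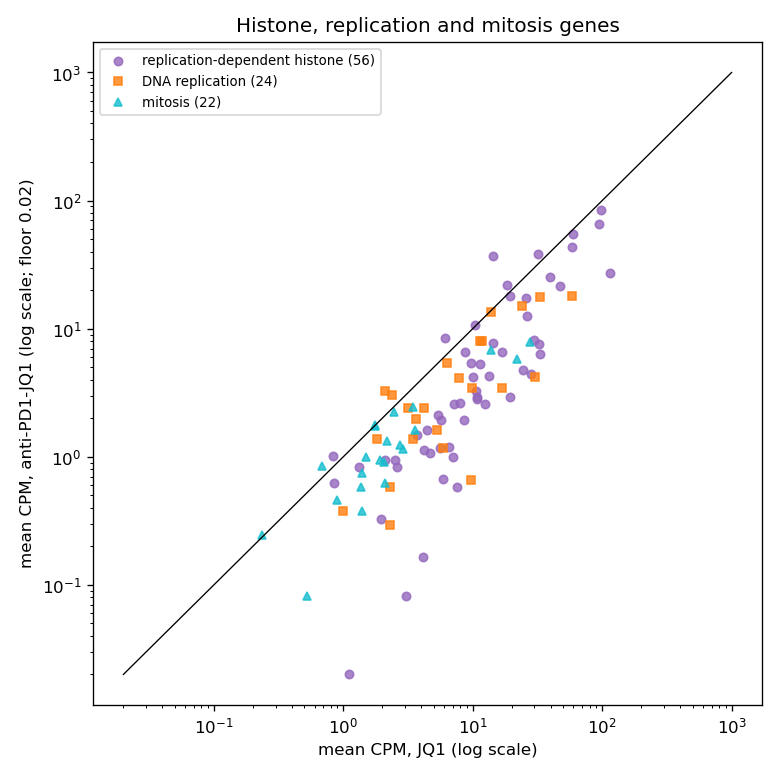
Mean CPM in the JQ1 libraries (horizontal) and the combination libraries (vertical), both on log axes with a floor of 0.02, for 56 histone genes (circles), 24 replication genes (squares) and 22 mitosis genes (triangles); the line marks equal levels. Most points of each kind lie below the line.

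The MYC family split between its members. Myc stood at 25.7 and 23.7 CPM with JQ1 and 16.0 and 7.75 CPM with the combination, a log2 difference of -1.10 ± 0.38 (SE; edgeR adjusted p = 0.247). Mycn, its paralog, stood at 19.0 and 40.3 CPM and then 5.05 and 0.659 CPM (-3.71 ± 0.77, SE; edgeR adjusted p = 0.125), against 42.1 to 73.3 CPM in the 4 libraries without JQ1. Mycl stood at 1.57 and 1.22 CPM and then 5.89 and 11.5 CPM (2.67 ± 0.56, SE; edgeR adjusted p = 0.124). The MAX partners Mxd1 and Mxd4, which oppose MYC, had log2 fold changes of 0.97 and 1.09. Of 10 tested members of the family list 5 were positive, and the median was 0.01, with DESeq2 calling Mycl higher and Mycn lower.

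Genes of the BET and P-TEFb machinery showed smaller differences. Hexim1, a P-TEFb inhibitor used as a marker of BET inhibition, stood at 29.8 and 19.1 CPM with JQ1 and 26.1 and 9.23 CPM with the combination (-0.52 ± 0.47, SE), and the groups overlapped. Aff1 and Ccnt1, of the elongation complexes, had log2 fold changes of 0.88 and 0.61. Of 13 tested members of this list, 5 were positive, 2 lay above and 3 below both JQ1 libraries, and the median was -0.05. The 13 included Ccr2, a chemokine receptor gene that is not part of this machinery.

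ERK output genes, which report signalling through these kinases, had 18 members tested, 13 negative, 10 below both JQ1 libraries and 2 above, and a median of -0.87 (-0.43 in the female pair, -1.21 in the male pair), which was -0.42 without JQ1 library 2. At an unadjusted p under 0.05, 9 were lower and 0 higher, and DESeq2 called 3, all lower. Hbegf, an EGF receptor ligand, stood at 15.3 and 14.4 CPM and then 4.21 and 3.63 CPM (-1.94 ± 0.37, SE; edgeR adjusted p = 0.104). Phlda1 stood at 55.3 and 34.5 CPM and then 20.6 and 9.39 CPM, and the ETS factor Etv4 at 16.9 and 33.9 CPM and then 3.79 and 10.2 CPM. The feedback phosphatase Dusp6 stood at 51.9 and 78.9 CPM and then 37.0 and 28.2 CPM, and the feedback inhibitor Spry1 at 23 and 28.6 CPM and then 14.3 and 12.4 CPM. These 5 genes were named for the smallest p in the list, and in each the groups did not overlap. Trp53, which encodes p53, stood at 3.57 CPM in both JQ1 libraries and 4.63 and 2.14 CPM with the combination (-0.16 ± 0.53, SE).

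Gastrointestinal genes, which lung adenocarcinomas can take up, had 14 of 20 members tested, 11 negative, 6 below both JQ1 libraries and 0 above, and a median of -0.80 (-1.17 female, -0.08 male). It was -0.41 without JQ1 library 1, -1.26 without JQ1 library 2 and -1.21 without combination library 2. Gkn2, a stomach secreted protein, stood at 271 and 147 CPM with JQ1 and 34.9 and 14.8 CPM with the combination (-3.11 ± 0.52, SE; edgeR adjusted p = 0.0960), and at 23.1 to 75.8 CPM in the 4 libraries without JQ1. The combination values were thus within or below the range of the libraries that received no JQ1. Vil1, the microvillus protein villin, stood at 48.8 and 42.6 CPM and then 10.1 and 9.39 CPM (edgeR adjusted p = 0.0932), Hnf4a, a gut and liver factor, at 88.1 and 77.1 CPM and then 45.9 and 19.4 CPM, and Foxa3 at 6.29 and 4.53 CPM and then 2.10 and 0.824 CPM. DESeq2 called Gkn2, Vil1 and Hnf4a lower.

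Stress and p53 genes were mixed. In the ATF4 and unfolded protein response list, 20 members were tested, 8 lay above both JQ1 libraries and 8 below, and the median was 0.02. Slc7a11, the cystine transporter, stood at 17.6 and 28.9 CPM and then 213 and 63.3 CPM (2.56 ± 0.53, SE; edgeR adjusted p = 0.124). Herpud1, of endoplasmic reticulum degradation, stood at 82.5 and 73.0 CPM and then 149 and 470 CPM, and the stress regulator Nupr1 at 16.8 and 4.27 CPM and then 47.6 and 36.1 CPM. Phgdh, the first enzyme of serine synthesis, was lower, at 33.4 and 28.8 CPM and then 6.73 and 14.2 CPM. DESeq2 called 6 of this list, 5 higher.

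Of 19 tested p53 targets 12 were positive, 6 lay above both JQ1 libraries and 2 below, and the median was 0.28. Perp was named above. Trp53inp1, an autophagy and cell death protein, stood at 15.4 and 29.4 CPM and then 51.3 and 130 CPM, Sesn1, a stress-induced mTORC1 inhibitor, at 6.71 and 3.40 CPM and then 10.1 and 26.7 CPM, and its paralog Sesn2 at 6.71 and 5.23 CPM and then 9.68 and 39.7 CPM. In each of these 3 genes combination library 2 was the higher of the pair. The median of the list was -0.07 when combination library 2 was left out.

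Heat shock chaperones had 16 members tested, 5 positive, a median of -0.40 and 5 below both JQ1 libraries against 2 above. Hspe1, a mitochondrial chaperonin, stood at 89.6 and 47.8 CPM and then 33.7 and 31.3 CPM, whereas Hspa4l, a nucleotide exchange factor, stood at 28.3 and 38.9 CPM and then 66.9 and 61.8 CPM. Immediate early genes had 20 members tested, 13 positive and a median of 0.19, with Ier3 at 3.78 and 5.06 CPM and then 9.68 and 22.6 CPM. NF-kB feedback genes had 12 of 21 members tested, 6 positive and a median of 0.08, with Birc3, an inhibitor of apoptosis, at 1.20 (log2).

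Transcripts of the cells that carry PD-1 were close to the limit of detection. Of 27 T cell genes 5 passed the low-count filter, and the 27 summed to 258 and 123 counts in the JQ1 libraries and 25 and 70 counts in the combination libraries. Scaled for depth, these sums were 27.1 and 10.7 CPM and then 10.5 and 11.5 CPM, which overlapped. Most of the JQ1 counts came from Bcl11b (85 and 28) and Tcf7 (112 and 56). In the combination libraries Bcl11b had 1 and 0 counts and Tcf7 had 4 and 27. The sums therefore do not describe the other members. Pdcd1, the PD-1 gene itself, had 0 counts in both JQ1 libraries, then 1 and 2 counts in the combination. Ifng had 0 counts in all 4 libraries, where 3 counts, the limit that a count of 0 allows, would be 0.314 and 0.261 CPM with JQ1 and 1.26 and 0.494 CPM with the combination, for counting error only. Cd8a had 1 and 0 counts with JQ1 and 0 in both combination libraries, Cd4 had 1 and 3 and then 1 and 0, Foxp3 had 0 and 2 and then 0 in both, and Ctla4 had 0 and 7 and then 0 and 2. Gzmb had 1 count in 1 combination library, Cxcl9 had 10 and 0 and then 1 and 6, and Cxcl10 had 3 and 0 and then 0 in both. The level of most T cell genes was too low to compare at this depth. Among the tested members, Bcl11b, a T lineage factor that other cells also express, had 85 and 28 counts with JQ1 and 1 and 0 with the combination, and was called lower by DESeq2 (adjusted p = 0.0117) and not by edgeR (adjusted p = 0.127). Tcf7 stood at 11.7 and 4.88 CPM and then 1.68 and 4.45 CPM.

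The other immune lists were thinly filled or overlapped. Of 15 cytotoxic and NK cell genes 1 was tested, of 13 dendritic cell genes 3, and of 15 B and plasma cell genes 6, with a median of -0.29. Tumour and interstitial macrophage genes had 14 of 18 tested, 4 positive, 4 below both JQ1 libraries and 1 above, and a median of -0.37. Arg1, an arginase of suppressive macrophages, stood at 28.8 and 2.09 CPM with JQ1 and 2.53 and 3.30 CPM with the combination, so JQ1 library 1 alone set it apart; without that library its log2 fold change was 0.49. Cx3cr1, a chemokine receptor, stood at 4.51 and 1.92 CPM and then 1.26 and 0.824 CPM. Alveolar macrophage genes had 14 tested, 8 positive and 0 outside the JQ1 values in either direction, with a median of 0.18, and neutrophil genes had 9 tested and a median of 0.03.

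Interferon gamma response genes were higher in 1 of the combination libraries. Interferon gamma, made by activated T and NK cells, induces GTPases, MHC genes and chemokines in its target cells. Of 27 genes 17 were tested, 16 were positive, 6 lay above both JQ1 libraries and 0 below, and the median was 0.98, but it was -0.16 in the female pair and 1.90 in the male pair. Without combination library 2 it was 0.27, without JQ1 library 2 it was 0.59 and without JQ1 library 1 it was 1.86. Iigp1, an interferon-inducible GTPase, stood at 4.40 and 1.48 CPM with JQ1 and 5.47 and 34.1 CPM with the combination, and its relative Igtp at 1.68 and 1.13 CPM and then 2.53 and 7.25 CPM. Gbp2, a guanylate-binding protein, stood at 7.66 and 2.79 CPM and then 8 and 15.7 CPM, and Nlrc5, the activator of MHC class I genes, at 1.47 and 0.610 CPM and then 1.26 and 5.27 CPM. Combination library 2 was the highest of the 4 in each of these genes, and DESeq2 called Iigp1. Type I interferon genes had 15 of 28 tested, 10 positive and a median of 0.14.

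Antigen presentation genes were mixed. MHC class I presentation had 18 members tested, 11 positive, 3 above both JQ1 libraries and 4 below, and a median of 0.35. This median was -0.53 in the female and 0.68 in the male pair. It was -0.21 without combination library 2 and -0.04 without JQ1 library 2. B2m, the class I light chain, stood at 32.7 and 15.5 CPM and then 35.4 and 36.9 CPM (0.59 ± 0.38, SE). Members of the peptide-loading complex differed among themselves. Pdia3, a protein disulfide isomerase, stood at 809 and 704 CPM and then 395 and 388 CPM (-0.95 ± 0.24, SE; edgeR adjusted p = 0.137), and the chaperone Calr at 255 and 166 CPM and then 122 and 142 CPM. The peptide transporter gene Tap2 stood at 9.33 and 4.10 CPM and then 10.1 and 13.5 CPM, and the bridging protein gene Tapbp at 20.7 and 18.3 CPM and then 18.5 and 51.1 CPM. MHC class II presentation had 9 members tested and all 9 overlapped between the groups, with a median of 0.19 that was -1.88 in the female and 1 in the male pair. H2-Aa stood at 45.2 and 16.7 CPM and then 17.7 and 77.6 CPM, and the invariant chain Cd74 at 285 and 63.0 CPM and then 102 and 414 CPM. Without combination library 2, H2-Aa was -0.83 and Cd74 -0.80 on the log2 scale, and Cd74 was -0.14 without JQ1 library 2.

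Checkpoint ligands, the partners of PD-1 and related receptors, had 14 of 19 members tested, 11 positive, 3 above both JQ1 libraries and 2 below, and a median of 0.13. Cd274, which encodes PD-L1, had 15 and 19 counts with JQ1 (1.57 and 1.66 CPM) and 7 and 5 counts with the combination (2.95 and 0.824 CPM), a log2 difference of 0.05 ± 0.74 (SE). Its sign turned in 4 alternative fits, down to -0.96 without combination library 1. Pdcd1lg2, which encodes PD-L2, had 0 and 2 counts and then 0 and 6. Cd200, a ligand that restrains myeloid cells, stood at 13.7 and 12.7 CPM and then 32.0 and 21.4 CPM, Nectin2, a ligand of PVRIG, at 49.9 and 33.6 CPM and then 25.3 and 19.8 CPM, and Icosl at 1.36 and 0.872 CPM and then 2.10 and 4.94 CPM. Fgl1, a LAG-3 ligand, had 2 counts in each JQ1 library and 1 and 48 counts in the combination libraries, so combination library 2 alone stood apart, and no fold is given.

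Markers of lung epithelium were present in all 4 libraries. Sftpc, the surfactant protein of alveolar type 2 cells, stood at 1510.5 and 454 CPM with JQ1 and 2003 and 3254 CPM with the combination (1.42 ± 0.56, SE; edgeR adjusted p = 0.318). Sftpd, a surfactant collectin, stood at 130 and 101 CPM and then 242 and 419 CPM (1.51 ± 0.35, SE; edgeR adjusted p = 0.127), and Hc, complement C5, at 17.8 and 8.98 CPM and then 25.7 and 77.5 CPM. DESeq2 called Sftpd and Hc higher. The lineage factor Nkx2-1 was lower, with 1043 and 1203 CPM and then 842 and 402 CPM, as did Etv5, with 311 and 190 CPM and then 178 and 75.0 CPM. The 18 alveolar type 2 genes had 11 positive, 5 above and 3 below both JQ1 libraries, and a median of 0.14. This median was -0.17 in the female and 0.93 in the male pair. It was -0.11 without JQ1 library 2 and -0.08 without combination library 1. The 15 alveolar type 1 genes had 7 positive and a median of -0.10, with Akap5 at 96.2 and 93.2 CPM and then 54.3 and 23.6 CPM.

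Airway genes had 14 of 20 tested, 7 positive, 3 above both JQ1 libraries and 0 below, and a median of 0.15. The median was -2.03 without combination library 1, -0.43 without JQ1 library 2, 2.31 without JQ1 library 1 and 0.75 without combination library 2. Scgb1a1, the club cell secretoglobin, stood at 77.9 and 22.5 CPM with JQ1 and 305 and 244 CPM with the combination, and was called higher by DESeq2. It also differed between vehicle (5.35 and 3.50 CPM) and the antibody alone (87.3 and 21.2 CPM), with an interaction of -1.17. Sox2, an airway lineage factor, had 22 and 0 counts with JQ1 and 94 and 117 with the combination, and Aldh1a1 stood at 18.9 and 10.8 CPM and then 25.7 and 47.0 CPM. Other airway genes had lower values in the combination: the ciliated cell gene Tppp3 stood at 15.1 and 3.40 CPM and then 6.73 and 1.48 CPM, and the mucin gene Muc5b, singled out after its values were seen, at 349 and 145 CPM and then 237 and 19.1 CPM. Whether the nodules held different amounts of airway was not tested. Epithelial-mesenchymal transition genes had 20 tested, 6 positive, 1 below both JQ1 libraries and 0 above, and a median of -0.26; Krt19, an epithelial keratin, was -1.06.

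Among stromal lists, the fibroblast and smooth muscle lists had medians near 0, and the endothelial list was mostly positive with a small median. Endothelial genes had 23 tested, 17 positive, 9 above both JQ1 libraries and 2 below, and a median of 0.34 (0.14 female, 0.33 male). With 1 library left out the median was 0.17 to 0.43. Vwf stood at 29.2 and 42.1 CPM and then 42.9 and 87.5 CPM. Prox1, the lymphatic endothelial factor, which other cell types also express, was an exception, with 9.23 and 18.2 CPM and then 1.68 and 0.824 CPM, close to the 0.939 to 2.31 CPM of the libraries without JQ1 (-3.59 ± 0.68, SE; edgeR adjusted p = 0.104). Fibroblast and matrix genes had 21 tested, 6 above and 6 below both JQ1 libraries, and a median of -0.02. Col1a1, a fibrillar collagen, was lower (560 and 461 CPM, then 250 and 256 CPM), as was Sparc, a collagen-binding glycoprotein (476 and 517 CPM, then 247 and 350 CPM). The fibroblast genes Inmt (5.77 and 4.62 CPM, then 18.5 and 10.2 CPM) and Dcn (5.03 and 3.31 CPM, then 7.15 and 12.9 CPM) were higher. Among 13 tested smooth muscle and pericyte genes, with a median of -0.11, Acta2 was lower (58.3 and 117 CPM, then 26.1 and 56.4 CPM) and the pericyte gene Rgs5 higher (15 and 19.5 CPM, then 33.7 and 39.9 CPM).

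Striated muscle genes had 7 of 16 tested, 0 positive, 3 below both JQ1 libraries and a median of -0.88 (-1.79 without combination library 1, -0.46 without combination library 2). The cardiac myosin genes Myh7 (2137 and 3387 CPM, then 1053 and 595 CPM) and Myh6 (242 and 326 CPM, then 136 and 64.8 CPM) were called lower by DESeq2. They are near-identical neighbours, so reads could be split between them. Of the other listed muscle genes, 5 had 0 counts in all 4 libraries. Actb, another abundant cytoskeletal transcript, took 1.30% and 1.64% of all counts in the JQ1 libraries and 0.623% and 0.731% in the combination libraries. On the scaled level it had a log2 difference of -0.54 ± 0.29 (SE; edgeR adjusted p = 0.419). Red cell transcripts, from 4 globin genes, summed to 25.9 and 39.4 CPM and then 47.6 and 14.0 CPM, which overlapped.

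Metabolic lists showed small medians. Nuclear genes of oxidative phosphorylation had 74 of 81 tested, 55 positive, 15 above both JQ1 libraries and 2 below, and a median of 0.23, which was -0.43 in the female and 0.80 in the male pair and -0.22 without combination library 2. Cox4i1, a cytochrome oxidase subunit, stood at 28.7 and 21.4 CPM and then 36.2 and 72.0 CPM, and Ndufa6, of complex I, had a log2 fold change of 1.13. Cholesterol synthesis genes had 22 tested, 15 positive, 8 above and 2 below both JQ1 libraries, and a median of 0.34, with Insig1, the sterol-sensing regulator, at 8.81 and 4.62 CPM and then 13.5 and 26.5 CPM, and Sqle at 1.18 (log2). Fatty acid oxidation genes had 19 tested, 13 positive, 8 above and 1 below, and a median of 0.29. Ppargc1a, the coactivator of mitochondrial biogenesis, stood at 20.3 and 4.88 CPM with JQ1 and 73.7 and 51.3 CPM with the combination, beside 27.4 to 48.6 CPM in the libraries without JQ1, and was called higher by DESeq2. Ucp3, an uncoupling protein, was at 0.105 and 0.262 CPM and then 1.26 and 2.80 CPM. Glycolysis and hypoxia genes had 24 tested, 8 positive, 0 above and 5 below both JQ1 libraries, and a median of -0.12. Ribosomal protein genes had 81 tested, 37 positive, 3 above and 13 below, and a median of -0.03, with Rpl29 at -0.94 (log2).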

How the data were processed

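Poly(A)-labelled RNA from frozen nodules was made into coding-transcript capture libraries, per the labels' protocols. The authors deposited raw counts per gene symbol; the submitters' processing notes name bcl2fastq, STAR, featureCounts, DESeq2 and the builds mm10 and GRCm38, without versions or roles. The deposited normalized table was not used.

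Counts of all 8 libraries were fitted in 1 model with a mean per treatment (R 4.3.3; edgeR 4.0.16: filterByExpr, TMM, robust quasi-likelihood, 4 residual degrees of freedom, biological coefficient of variation 0.332), with a 2-sided test and Benjamini-Hochberg adjustment over 14085 genes at 0.05. Libraries were numbered in accession order. The fit was also run on counts simulated from its own means and dispersions with added changes. These had no shift in composition between groups, so they do not test the effect of the ribosomal RNA share. DESeq2 1.42.0, limma voom 3.58.1, other scalings and filters, a sex term and leaving out each library were alternatives. No 2 libraries agreed within sampling noise (chi-square per degree of freedom at least 17.3). The Pearson correlation of log2 CPM was 0.939 between the JQ1 libraries and 0.911 between the combination libraries. Between a JQ1 and a combination library it was 0.906 to 0.919. By this correlation the combination libraries were no more like each other than like the JQ1 libraries. Chi-square per degree of freedom was 27.0 between the combination libraries. Between a JQ1 and a combination library it ran from 26.6 (library 1 of each) to 176 (library 2 of each).

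Positions and biotypes came from GENCODE vM21 (13783 of 14085 tested symbols matched), promoters from RefSeq GRCm38.p6. Named genes were called genes, then the smallest p-values up to 10 a direction (average log2 CPM 1 or more, groups apart, predicted genes left out), plus fixed genes (some of these, and the model's full name, are not reported here) and up to 5 members per list with the smallest p; Arntl and Npas2 were named after their values were seen. The comparison and the lists were chosen with earlier results of these data known.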

Additional observations from a re-analysis of the deposited data

How the results depend on the processing

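No paired analysis was possible because the labels carry no replicate numbers; libraries could be matched only by sex, through the sex term given below. The 3 calls (2 higher, 1 lower) became 2 higher and 0 lower with RLE factors, with upper-quartile factors and without ribosomal RNA genes, where Id2 was lost (adjusted p = 0.0575, 0.0683 and 0.0542). With no filter on low counts 672 genes were called (292 higher, 380 lower), with DESeq2 409 (212 and 197), with limma voom 5 (4 and 1), and with a mean count of at least 50 there were 4 (3 and 1). With only the 4 libraries compared 0 were called (0 higher, 0 lower), and with a sex term 0 (0 and 0; smallest adjusted p = 0.0687). Leaving out 1 library gave 0 to 114 calls, 0 to 87 higher and 0 to 27 lower. The interaction gave 138 calls with no filter, 22 with DESeq2 and 0 to 1 with 1 library left out (1 without JQ1 library 1). The cause was not tested. A library left alone in its group is assumed to vary like the other groups.

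Signs turned for some genes that were not called. Cd274 was -0.0116 with no filter and -0.32 with voom. With 1 library left out, Cd274 ranged from -0.96 (without combination library 1) to 0.84 (it was also -0.0048 without JQ1 library 1). Trp53 (-0.73 to 0.35) and Hexim1 (-1.40 to 0.071) were above 0 without combination library 2. Arntl (-0.81 to 0.42) was above 0 without JQ1 library 1 (0.04) and combination library 1, Npas2 (-1.96 to 0.15) without combination library 1, and Arg1 (-3.27 to 0.49) without JQ1 library 1. Tppp3 (-2.62 to 0.0831) was above 0 without JQ1 library 1, and Tapbp (-0.0969 to 1.39) below 0 without combination library 2. H2-Aa (-0.83 to 1.53) was below 0 without combination library 2, and Cd74 (-0.80 to 2.03) without that library and without JQ1 library 2 (-0.14). Of 662 alternative list medians, 54 turned sign, in 23 of 39 lists; the clock, glucocorticoid, histone, DNA replication, mitosis, ERK, gastrointestinal and interferon gamma lists were not among them, though their medians moved by over 1.5 times with 1 library left out. Combination library 1, with 1444554 counts outside ribosomal RNA, limits what can be seen in genes of low level.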
